A study of Mus musculus with 27 samples.

Results

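Neurons signal at synapses by fusing transmitter-filled vesicles with the membrane of the nerve terminal when calcium enters. Synaptophysin and the SV2 proteins travel in the vesicle membrane, synapsins hold vesicles in clusters, SNARE proteins drive fusion, and synaptotagmins and complexins tie fusion to calcium. Rab3 with its effectors, Munc13 and the scaffold proteins Bassoon and Piccolo bring vesicles to the active zone, and dynamin, amphiphysin and AP180 take membrane back afterwards. In the mature retina, conventional synapses use complexins 1 and 2, while the ribbon synapses of photoreceptors and bipolar cells use complexins 3 and 4.

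The synaptic vesicle and release machinery is described here as 39 genes, taken by their symbols from a table of 30735 genes with the transcripts of each gene summed. By role they are 5 vesicle membrane genes, 3 synapsins, 9 synaptotagmins, 5 genes of the SNARE group with Nsf, 4 complexins, 6 genes of Rab3 and its effectors, 4 priming and scaffold genes and 3 endocytic genes. No measured value entered the rule, but the members were chosen with earlier results of these data known. All 39 were found under 1 gene ID each, and all 39 passed the filter on low counts in the retinal fits, against 38 of 39 in the brain fit, where Cplx4 was not tested.

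RNA came from C57Bl/6 mice in which alkaline phosphatase (AP) marks the locus of Brn3a (Pou4f1) or Brn3b (Pou4f2), POU transcription factors of retinal ganglion cells. Beads carrying an anti-AP antibody split dissociated retinas into bound cells, called RGC libraries, and the unbound supernatant (SN). The RGC groups were Brn3a AP/KO (Brn3a KO) and Brn3a AP/WT (Brn3a HET) at postnatal day 3 (P3), and Brn3b AP/KO (Brn3b KO) and Brn3b AP/WT (Brn3b HET) at P3 and at embryonic day 15 (E15), each as 2 libraries, and each of these 6 groups has 1 SN library. Every retinal group, HET and SN included, thus carries an AP allele in place of 1 wild-type allele, so HET is not wild type. Wild-type P3 brain gave 3 superior colliculus (SC), 3 lateral geniculate nucleus (LGN), 1 pretectal (PTA) and 2 remaining brain libraries, dissected after tracing of the retinal axons. The remaining sections were pooled.

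Retinal libraries held 28905611 to 37394598 counts and brain libraries 10122928 to 13769623. No label names separate animals or litters, so each p measures the spread between libraries, which may be technical. The bound cells were not pure. Microglia and macrophage markers summed to 1149 to 4335 counts scaled to library size with TMM (CPM) in P3 RGC libraries, against 9.04 to 29.2 CPM in P3 SN libraries. The 18 RGC markers summed to 2003 to 11194 CPM in P3 RGC and 979 to 1719.9 CPM in P3 SN libraries. Pou4f1 was 16.9 and 10.8 CPM in Brn3a KO and 480.1 and 443 CPM in Brn3a HET libraries, and Pou4f2 was 21.7 and 18.9 CPM in Brn3b KO and 187 and 285 CPM in Brn3b HET libraries at P3. At E15 the separation was weaker. Pou4f2 was 65.9 and 63.8 CPM in Brn3b KO and 322 and 221 CPM in Brn3b HET RGC libraries. In E15 SN libraries it was 22.4 CPM (KO) and 51.3 CPM (HET). Pou4f1 was 36.0 to 231.7 CPM in E15 RGC and 73.6 to 104.3 CPM in E15 SN libraries. The second Brn3a KO library has a title that names Brn3a and a genotype entry that names Brn3b. It was grouped by the title, and its Pou4f1 is the 10.8 CPM above. Some source names also name another gene or age than the title, and every library was grouped by its title. Exons of 6 members overlap genes of the other strand that the table also counts (Syn1 and Araf, Syn2 and Timp4, Syn3 and Timp3, Syt6 and Atg4a-ps, Rab3a and Mpv17l2, Unc13a and Colgalt1), over 1733 bases for Syn3. Whether counting used strand is not given in the sources used here, so values of these 6 are uncertain to that extent. In bulk RNA, fewer cells of a type and less RNA per cell cannot be told apart.

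Among the members, compared per transcript length (TPM), Snap25, a SNARE of the plasma membrane, was the most abundant in P3 RGC libraries at 1038 ± 319 TPM (SD, n = 8). Syp (synaptophysin) followed at 600.0 ± 96.2 TPM, Rab3a at 457 ± 167 TPM, Vamp2, the vesicle SNARE, at 420.5 ± 62.6 TPM and Syt1, the calcium sensor of fast release, at 354 ± 151 TPM. The ranges of these 4 genes overlapped one another. Snap25, at 590 to 1405 TPM, overlapped Syp and Rab3a, and in Brn3b KO library 1 Syp was higher (801.7 against 646 TPM). At the low end, Syt12 was at 2.12 ± 0.663 TPM and Syt2 at 1.26 ± 0.514 TPM. The order differed at E15, when Syt11, a synaptotagmin that does not bind calcium, led at 205 ± 21.8 TPM (SD, n = 4) beside Snap25 at 191 ± 55.2 TPM, with overlapping ranges. In the brain, Vamp2 was highest in SC (722 ± 36.1 TPM), LGN (799 ± 23.9 TPM) and remaining brain (834 ± 29.9 TPM). Cplx4 was listed at 0 in 8 of the 9 brain libraries.

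**Figure D1:**
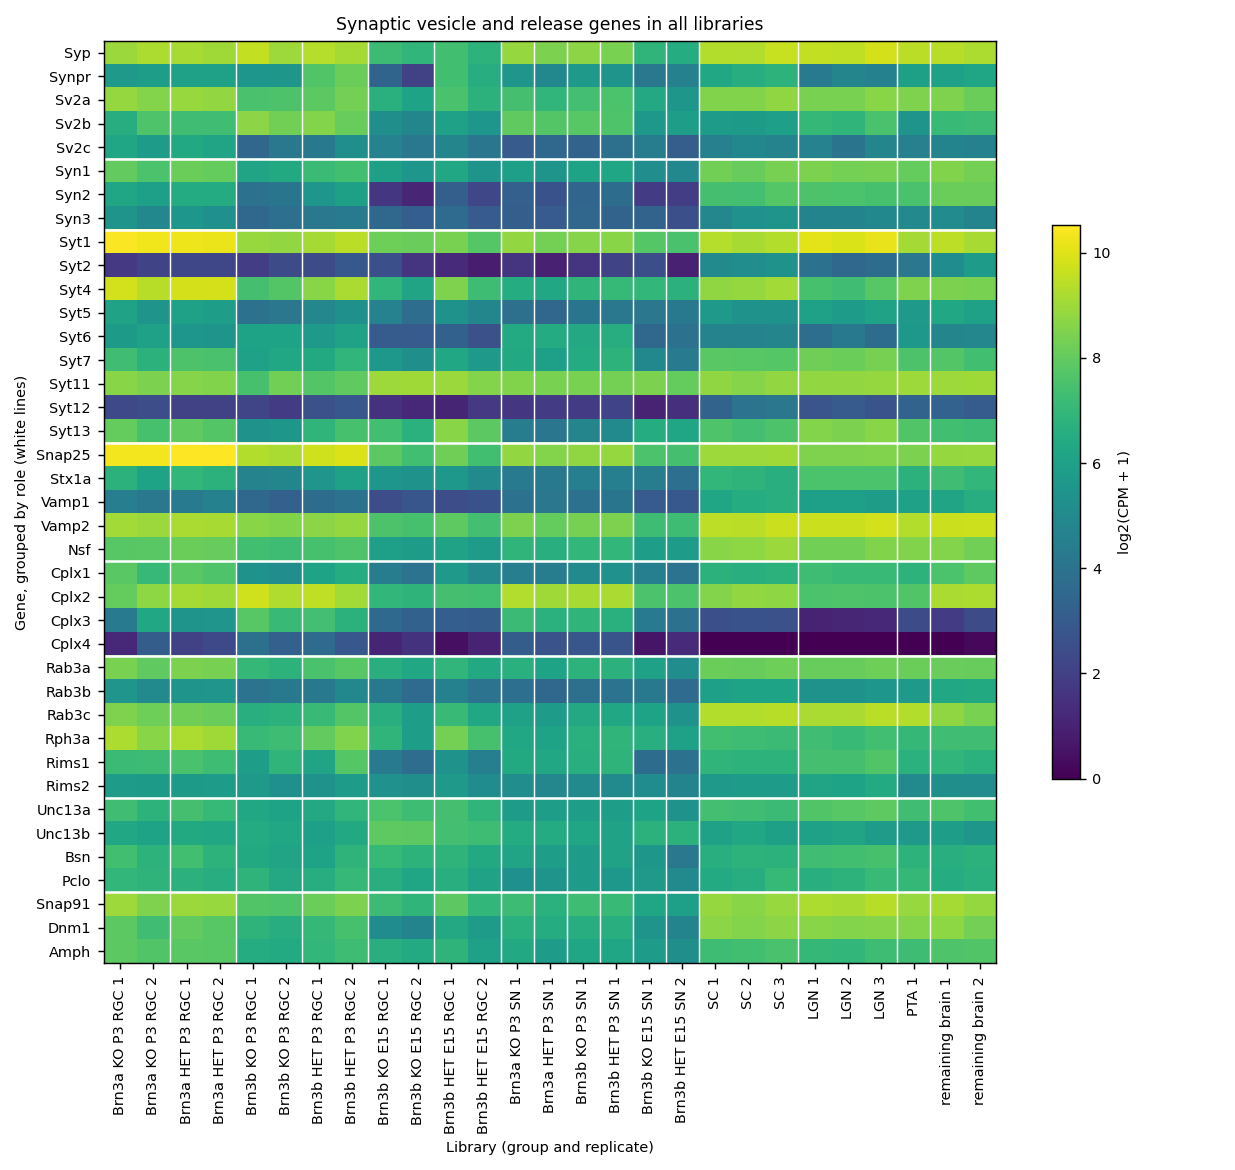
Level of each member as log2(CPM + 1), with the 39 genes in rows grouped by role and the 27 libraries in columns grouped by condition; retina and brain were scaled separately and read on different instruments, so colours compare within each. Brn3a RGC libraries at P3 are brightest for Syt1, Syt4 and Snap25, E15 libraries are darker for most rows, and Synpr is dark in the 2 Brn3b KO libraries at E15.

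Shares of a family's TPM show which paralog a library used, and they are given as descriptions without a test. Cplx1 made up 33.9% to 62.9% of complexin TPM in Brn3a KO and 42.3% to 44.7% in Brn3a HET RGC libraries, 6.59% to 8.06% in Brn3b KO and 12.8% to 21.4% in Brn3b HET RGC libraries at P3, and 5.07% to 10.1% in P3 SN libraries. Cplx3 held 25.2% to 27.7% in Brn3b KO and 19.8% to 24.2% in Brn3b HET RGC libraries at P3, and 20.7% to 26.3% in P3 SN libraries. Brn3b KO libraries were thus within or near the SN range in both complexins, and Brn3a libraries were far from it in Cplx1. In the SV2 family, Sv2b held 54.4% to 64.1% in Brn3b KO and 36.4% to 54.0% in Brn3b HET RGC libraries at P3, 11.9% to 26.5% in Brn3a KO and 17.8% to 19.0% in Brn3a HET RGC libraries, and 44.1% to 56.0% in P3 SN libraries. Rims1 held 63.6% to 84.8% of the TPM of Rims1 and Rims2 in P3 RGC libraries and 25.4% to 48.5% in E15 RGC libraries, so the ages did not overlap. Unc13a held 52.6% to 60.0% of the TPM of Unc13a and Unc13b in Brn3a KO and 54.6% to 62.1% in Brn3a HET RGC libraries. It held 35.7% to 41.4% in Brn3b KO and 45.3% to 53.6% in Brn3b HET RGC libraries at P3, and 34.3% to 37.8% in P3 SN libraries, so Brn3b KO libraries overlapped SN. Synpr made up 3.95% to 6.23% of the TPM of Syp and Synpr in Brn3b KO and 18.1% to 27.7% in Brn3b HET RGC libraries at P3. At E15 it made up 1.67% to 3.83% in Brn3b KO and 34.3% to 43.6% in Brn3b HET RGC libraries.

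The first comparison asks where in the P3 retina this machinery is expressed, with 8 RGC against 4 SN libraries. At P3, 28 of the 39 members were higher in RGC libraries, 1 was lower and 10 did not pass the test (adjusted p under 0.05), where 27.3% of all 16954 genes tested were called higher and 27.7% lower. The median log2 fold change of the members was 0.96, against -0.03 over all genes. The ± after a log2 value is its standard error (SE). Largest was Syt13, a synaptotagmin without calcium binding, at 40.6 to 258 CPM, median 175 CPM, in RGC libraries, against 20.6, 16.5, 26.6 and 31.9 CPM in SN libraries (log2 fold change 2.50 ± 0.23, adjusted p = 1.2e-06). Every RGC library was above every SN library, but the Brn3b KO libraries, at 40.6 and 46.5 CPM, lay nearest to SN.

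The synapsins, which tether vesicles to each other and to actin, were called higher as a whole family. Syn2 was at 14.8 to 88.4 CPM, median 61.7 CPM, in P3 RGC libraries, against 8.44, 5.28, 9.87 and 12.4 CPM in SN libraries (log2 fold change 2.42 ± 0.25, adjusted p = 3.63e-06). Syn3 rose by 1.50 ± 0.20 and Syn1 by 1.44 ± 0.18 on the log2 scale. Of the vesicle membrane genes, Sv2c, a member of the SV2 transporter family, rose most (log2 fold change 1.88 ± 0.30, adjusted p = 0.00013). It was at 10.0 to 83.7 CPM, median 45.1 CPM, in RGC and 7.02, 10.4, 9.33 and 13.6 CPM in SN libraries, and of the Brn3b KO RGC libraries, the lowest, 1 at 10.0 CPM lay among SN and 1 at 17.5 CPM above it. Sv2a rose by 1.01 ± 0.19, Synpr (synaptoporin) by 0.94 ± 0.24 and Syp by 0.59 ± 0.14 on the log2 scale. Synpr was at 201 and 285 CPM in Brn3b HET libraries and 45.0 to 63.6 CPM in the other RGC libraries. SN libraries had 29.3 to 51.0 CPM of Synpr, so its excess lay mostly in Brn3b HET. For Sv2a, the Brn3b KO libraries, at 179 and 189 CPM, lay in or near the SN range of 119 to 183 CPM. Sv2b stood at 0.09 ± 0.18 and was not called.

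Synaptotagmins split. Syt4, which acts on dense-core vesicles in neurons, was at 172 to 929.5 CPM, median 622 CPM, in RGC and 91.8, 76.8, 116 and 132 CPM in SN libraries (log2 fold change 2.32 ± 0.25, adjusted p = 4.53e-06), with no overlap. Syt5 rose by 1.37 ± 0.21, Syt1 by 1.11 ± 0.12 and Syt7, a slow calcium sensor, by 0.47 ± 0.18 on the log2 scale. Syt7 passed narrowly (adjusted p = 0.0441), and its call was kept in 9 of 19 alternatives, lost with transcript length offsets and without each of 9 single libraries. The other 28 of the 29 calls held under each alternative run. Syt6 was the one member lower in RGC libraries, at 42.4 to 68.0 CPM, median 58.2 CPM, against 85.9, 86.9, 80.5 and 93.6 CPM in SN libraries (log2 fold change -0.60 ± 0.13, adjusted p = 0.00146). Syt11 (-0.17 ± 0.13 on the log2 scale), Syt2 (0.84 ± 0.44) and Syt12 (0.58 ± 0.25) were not called, and neither Syt2 nor Syt12 passed 6.45 CPM in any retinal library.

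For the fusion core, Snap25 was at 582 to 1472 CPM, median 1140.0 CPM, in RGC libraries, against 447, 375, 443 and 458 CPM in SN libraries (log2 fold change 1.27 ± 0.15, adjusted p = 1.04e-05). Its plasma membrane partner Stx1a rose by 1.62 ± 0.17, Nsf, the ATPase that takes SNARE complexes apart, by 0.85 ± 0.09 and Vamp2 by 0.59 ± 0.10 on the log2 scale. Vamp1 was even between fractions at -0.02 ± 0.12 and not called. The complexins divided by paralog. Cplx1 was at 34.8 to 229 CPM, median 111 CPM, in RGC and 21.5, 20.6, 31.8 and 38.8 CPM in SN libraries (log2 fold change 1.90 ± 0.23, adjusted p = 1.25e-05). Cplx2 (-0.05 ± 0.13), Cplx3 (-0.45 ± 0.26) and Cplx4 (0.07 ± 0.41, log2 fold change ± SE) were not called. Cplx3 ranged widely among RGC libraries, 19.2 to 222 CPM, median 91.9 CPM, around the SN values of 144, 105, 118 and 102 CPM. Photoreceptor markers spanned 487 to 5235 CPM in the same RGC libraries and 2758 to 3609.9 CPM in SN libraries, and the lowest and highest of both sums fell in the same 2 libraries. Their part in the Cplx3 values was not tested.

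Among Rab3 and its effectors, Rph3a (rabphilin, a Rab3 effector) rose by 1.89 ± 0.24, Rab3c by 1.58 ± 0.21, Rab3a by 1.21 ± 0.18, Rab3b by 1.11 ± 0.20 and Rims2 by 0.68 ± 0.12 on the log2 scale, and Rims1 stood at 0.53 ± 0.27 and was not called. Rph3a was at 137 to 608 CPM, median 380.2 CPM, in RGC libraries, against 78.2, 68.7, 103 and 117 CPM in SN libraries, without overlap. At the active zone, Pclo (Piccolo) rose by 1.25 ± 0.18, Unc13a, the main Munc13 priming factor of brain synapses, by 0.96 ± 0.16 and Bsn (Bassoon) by 0.82 ± 0.23, and Unc13b was at -0.01 ± 0.10 and was not called. All 3 endocytic genes were called higher: Snap91 (AP180) by 1.34 ± 0.16, Amph (amphiphysin) by 1.17 ± 0.15 and Dnm1 (dynamin 1) by 0.79 ± 0.16. Of 53 other release genes, 34 were called higher and 5 lower; Ppfia4, a liprin of the active zone, led (log2 fold change 2.41 ± 0.20, adjusted p = 5.46e-07). Of 12 dense-core vesicle genes, 9 were higher, and of 17 adhesion and postsynaptic genes, 11 were higher and 2 lower. All 14 microglia markers were higher and all 20 cell cycle genes lower in the same comparison. Their part in these values was not tested.

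At E15 the same comparison had 4 RGC and 2 SN libraries, and 13 members were called higher and 1 lower, where 13.4% of all genes were called higher and 13.0% lower. The median log2 fold change of the members was 0.44, against -0.01 over all genes. Bsn and Unc13a had the largest values, and all 4 priming and scaffold genes were called higher. Bsn was at 131, 111, 114 and 82.6 CPM in RGC libraries (Brn3b KO first, then Brn3b HET), against 46.6 and 17.4 CPM in SN libraries (log2 fold change 1.72 ± 0.34, adjusted p = 0.00385). Unc13a was at 184, 152, 171 and 118 CPM in RGC and 68.6 and 40.9 CPM in SN libraries (log2 fold change 1.46 ± 0.24, adjusted p = 0.00107). Unc13b was at 239, 236, 168 and 154 CPM in RGC and 107 and 107 CPM in SN libraries (log2 fold change 0.82 ± 0.14, adjusted p = 0.00171). In these 3 genes every RGC library was above both SN libraries, and Pclo rose by 0.98 ± 0.24 on the log2 scale. Stx1a (1.26 ± 0.24), Syt13 (1.29 ± 0.30), Snap91 (1.14 ± 0.23), Syt7 (1.01 ± 0.27), Amph (0.94 ± 0.21), Rab3a (0.89 ± 0.26), Syn1 (0.80 ± 0.25), Sv2a (0.76 ± 0.26) and Syt11 (0.59 ± 0.19) were also called higher, and Syt6 was lower again (-0.89 ± 0.19, log2 fold change ± SE). No complexin was called, and Cplx3 came nearest of the 4 (adjusted p = 0.0644), on the lower side. Cplx3 was at 10.9, 8.77, 7.92 and 7.55 CPM in RGC and 19.1 and 14.7 CPM in SN libraries. The other members not called at E15 ranged from -0.58 (Syt2) to 0.84 (Rph3a) on the log2 scale.

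The E15 calls rest on few SN libraries. When the Brn3b HET library of E15 SN was left out, 2 of the 14 calls held, those of Unc13a and Unc13b, and with only E15 libraries in the fit 3 were left. Higher calls at both ages numbered 11, of 28 at P3 and 13 at E15, and the 2 called at E15 but not at P3 were Syt11 and Unc13b. Of the 53 other release genes, 20 were called higher and 3 lower at E15, with Ppfia4 again leading (log2 fold change 1.82 ± 0.28, adjusted p = 0.000727).

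**Figure D2:**
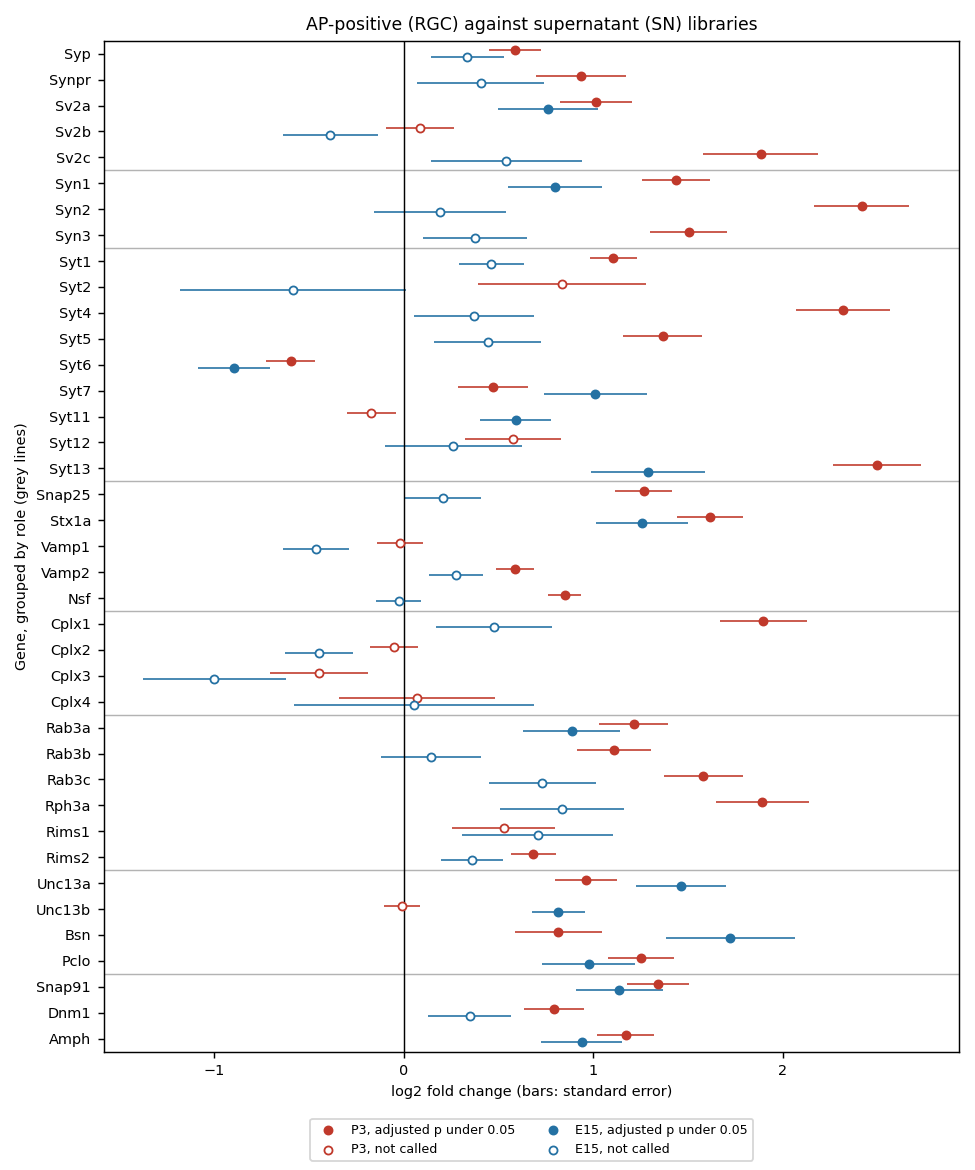
Log2 fold change of RGC against SN libraries for each member (bars are standard errors) at P3 (red, 8 against 4 libraries) and E15 (blue, 4 against 2); filled points passed adjusted p under 0.05. At P3 Syt13, Syn2 and Syt4 lie above 2, at E15 Bsn and Unc13a lie farthest right, and Syt6 lies left of 0 at both ages.

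The difference between the ages was tested itself, as an interaction. It was called for 10 members, 8 positive and 2 negative, where 9.74% of all genes were called positive and 7.77% negative. P3 RGC libraries include Brn3a groups, which have no E15 counterpart, so the test does not separate age from the marked locus. RGC markers summed to 2773 to 4113 CPM in E15 SN and 979 to 1719.9 CPM in P3 SN libraries, and their part was not tested. The RGC to SN difference was larger at P3 for Syn2, Syn3, Syt1, Syt4, Syt13, Snap25, Nsf and Cplx1, and smaller at P3 for Syt11 and Unc13b. Syn2 had the largest, with an interaction of 2.22 ± 0.41 on the log2 scale, adjusted p = 0.0031. For Unc13b the RGC excess was 0.82 ± 0.14 at E15 and -0.01 ± 0.10 at P3 on the log2 scale, an interaction of -0.82 ± 0.17 on the log2 scale, adjusted p = 0.00547. Without library 2 of Brn3b KO RGC at E15, 6 members were called, and with HET groups alone on the RGC side 5 were.

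Maturation was read in Brn3b RGC libraries of P3 against those of E15, 2 against 2 in each genotype. In Brn3b KO libraries 17 members were called higher at P3 and 4 lower, where 14.4% of all genes were called higher and 11.1% lower. In Brn3b HET libraries 23 were higher and 3 lower, where 16.6% of all genes were called higher and 12.3% lower. The median log2 fold change of the members was 0.71 in KO and 1.00 in HET libraries, against 0.03 in KO and 0.01 in HET libraries over all genes. All 4 complexins were called higher in both genotypes. The Cplx2 and Cplx3 calls held under each alternative run. That of Cplx1 was lost in KO without any 1 of the 4 libraries and in HET without either P3 library, without library 2 of E15 or with just the compared libraries fitted. That of Cplx4 was lost in KO without library 1 of P3 or either E15 library and in HET without library 1 of E15. Cplx2 was at 725 and 540.2 CPM in P3 and 169.9 and 161 CPM in E15 HET libraries (log2 fold change 1.95 ± 0.24, adjusted p = 0.000534). Cplx3 was at 168 and 108 CPM in P3 and 7.92 and 7.55 CPM in E15 HET libraries (log2 fold change 4.17 ± 0.56, adjusted p = 0.000768). No library of one age reached those of the other.

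Syn2 showed the largest rise of the synapsins, with 45.8 and 62.5 CPM in P3 and 7.99 and 3.79 CPM in E15 HET libraries (log2 fold change 3.22 ± 0.35, adjusted p = 0.000314), and a like change in KO libraries (3.20 ± 0.37 on the log2 scale). Syp was at 644 and 549.8 CPM in P3 and 160.0 and 111 CPM in E15 HET libraries (log2 fold change 2.15 ± 0.23, adjusted p = 0.000301). Sv2b was at 374 and 266 CPM in P3 and 63.4 and 45.4 CPM in E15 HET libraries (log2 fold change 2.57 ± 0.35, adjusted p = 0.000765). Among synaptotagmins, Syt6 rose most, at 49.6 and 66.8 CPM in P3 and 8.65 and 5.17 CPM in E15 HET libraries (log2 fold change 3.09 ± 0.25, adjusted p = 8.34e-05). Syt1 (1.20 ± 0.20), Syt2 (2.29 ± 0.53) and Syt12 (1.70 ± 0.41) also rose in HET libraries on the log2 scale. Nsf had the smallest p of the SNARE group, at 177 and 196 CPM in P3 and 65.6 and 53.2 CPM in E15 HET libraries (log2 fold change 1.67 ± 0.13, adjusted p = 8.34e-05), and Snap25, Vamp1 and Vamp2 rose by 2.00 ± 0.27, 1.46 ± 0.24 and 1.13 ± 0.17. Rims1, the active zone scaffold that binds Rab3, rose by 2.18 ± 0.51, Dnm1 by 1.17 ± 0.25 and Rab3a by 1.00 ± 0.22.

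The members that fell were Syt11, Syt13 and Unc13b, in both genotypes. Unc13b was at 60.9 and 83.3 CPM in P3 and 168 and 154 CPM in E15 HET libraries (log2 fold change -1.14 ± 0.16, adjusted p = 0.00096). It was at 89.0 and 76.5 CPM in P3 and 239 and 236 CPM in E15 KO libraries (log2 fold change -1.53 ± 0.16, adjusted p = 0.000269). Syt13 was at 117 and 173 CPM in P3 and 407 and 236 CPM in E15 HET libraries (log2 fold change -1.13 ± 0.31, adjusted p = 0.0229). Synpr, not called in HET libraries (0.96 ± 0.39), was higher at P3 in KO libraries, at 45.0 and 47.1 CPM in P3 and 9.38 and 3.27 CPM in E15 libraries (log2 fold change 2.86 ± 0.43, adjusted p = 0.00131). Unc13a fell in KO libraries (log2 fold change -1.20 ± 0.26, adjusted p = 0.00883) and was at -0.50 ± 0.26 in HET libraries, not called. Bsn, Pclo, Rims2, Rab3b, Rab3c, Rph3a, Stx1a, Syt4, Syt5, Syt7 and Sv2c were called in neither genotype, with values from -0.08 (Bsn) to 0.95 (Syt4) in HET libraries on the log2 scale. The genotypes shared 16 higher calls, of 23 in HET and 17 in KO libraries. Whether age changes differed between genotypes is the interaction given with the KO comparison.

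SN libraries of the 2 ages, 4 against 2, gave 20 members higher at P3 and 2 lower, where 15.6% of all genes were called higher and 17.5% lower. Rims1 (2.73 ± 0.44), Cplx3 (2.72 ± 0.43), Syt6 (2.69 ± 0.22) and Cplx4 (2.62 ± 0.68) rose most on the log2 scale, and Syt13 (-1.84 ± 0.28) and Unc13b (-0.53 ± 0.13) fell. Marker sums of cell types changed with age too. RGC markers summed to 2003 to 2269 CPM in P3 and 8087 to 9241 CPM in E15 Brn3b KO libraries, and to 4388 to 6273 CPM in P3 and 7549 to 12902 CPM in E15 Brn3b HET libraries. Of 18 RGC markers, 9 were called lower and 3 higher in KO, and 7 lower and 3 higher in HET libraries. Microglia and macrophage markers summed to 1149 to 1519 CPM in P3 and 764 to 863 CPM in E15 KO libraries, and to 2412 to 2905 CPM in P3 and 824 to 1112 CPM in E15 HET libraries. They were called higher for 6 of 14 in KO and 14 of 14 in HET libraries. Photoreceptor markers summed to 3451 to 5235 CPM in P3 and 309 to 329.9 CPM in E15 KO libraries, and to 2868 to 4115 CPM in P3 and 277 to 375 CPM in E15 HET libraries. Of 16 tested, 14 were called higher in KO and 12 in HET. Amacrine markers summed to 1355 to 1486 CPM in P3 and 821 to 981 CPM in E15 KO libraries, and to 1135 to 1276 CPM in P3 and 235 to 288 CPM in E15 HET libraries, with 8 of 14 called higher in KO and 11 of 14 in HET. Their part in the age changes of the members was not tested. Of the 53 other release genes, 23 were higher and 2 lower at P3 in HET RGC libraries, led by Syngr1, a synaptophysin relative (log2 fold change 2.30 ± 0.21, adjusted p = 0.000141). Of the 12 dense-core vesicle genes 8 were higher, among them Scg2 (log2 fold change 2.93 ± 0.48, adjusted p = 0.00196).

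Single libraries moved the HET count. Leaving out library 2 of P3 left 16 members called, and leaving out library 2 of E15 left 17. That E15 library had the higher cell cycle sum of its pair, with sums of 1336 to 3054 CPM in the 2 libraries. Of the 21 KO calls 14 held under each alternative run. Of the 26 HET calls 13 did, Syn2, Syp, Cplx2, Cplx3, Nsf and Unc13b among them.

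**Figure D3:**
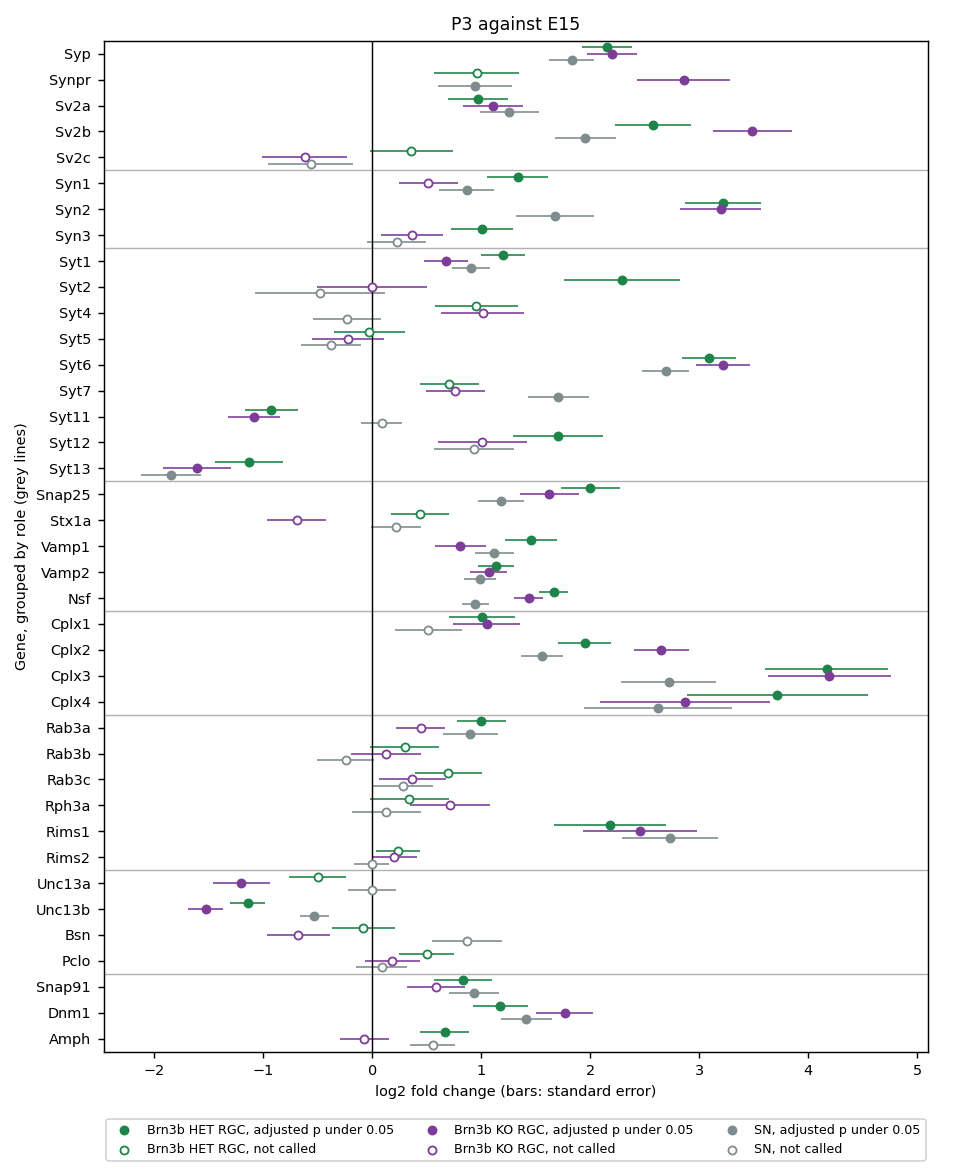
Log2 fold change of P3 against E15 for each member (bars are standard errors) in Brn3b HET RGC libraries (green), Brn3b KO RGC libraries (purple) and SN libraries (grey); filled points passed adjusted p under 0.05. Complexins 2, 3 and 4, Syt6 and Syp lie right of 1 in all 3 sets, Unc13b and Syt13 lie left of 0 in all 3, and Syn2 lies above 3 in both RGC sets.

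Loss of Brn3b was read in KO against HET RGC libraries, 2 against 2 at each age. At P3, 3 members fell and none rose, where 3.15% of all 16673 genes were called lower and 0.264% higher. At E15, 3 fell and none rose, where 1.18% were called lower and 0.666% higher. Synpr and Syn2 were called at both ages, Syt13 at P3 and Dnm1 at E15. All tests here are edgeR's; an unadjusted p under 0.05 was found for 22 members at P3, where 19.1% of all genes had one, and for 13 at E15, where 11.7% had one. The median log2 fold change of the 39 members was -0.65 at P3 and -0.22 at E15, against 0.01 and -0.03 over all genes.

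Synpr (chr14:13284780-13615459, plus strand, GRCm38), which encodes synaptoporin, a vesicle protein of the synaptophysin family, had the largest change of any member. At P3 it was at 45.0 and 47.1 CPM in Brn3b KO and 201 and 285 CPM in Brn3b HET libraries (log2 fold change -2.45 ± 0.41, adjusted p = 0.0197). At E15 it was at 9.38 and 3.27 CPM in KO and 161 and 93.0 CPM in HET libraries (log2 fold change -4.35 ± 0.45, adjusted p = 0.00255). Both KO libraries were below both HET libraries at each age, and the fitted level was 5.47-fold lower in KO at P3 and 20.4-fold lower at E15. In SN libraries it was at 44.2, 29.3, 51.0 and 43.2 CPM at P3 (Brn3a KO, Brn3a HET, Brn3b KO, Brn3b HET) and 17.8 and 23.4 CPM at E15 (KO, HET), so the Brn3b KO RGC values lay within the SN range at P3 and below both SN libraries at E15. The E15 call held without each library in turn, with log2 fold changes of -5.30 to -3.77. At P3 it was lost without either KO library or without HET library 2 (log2 fold changes of -2.68 to -2.18, adjusted p of 0.0248 to 0.179). With only the 4 compared libraries in the fit, no member was called at either age.

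Of 5 Synpr transcripts in the file, Synpr-001 starts at chr14:13284780 and Synpr-002 at chr14:13454057, and nearly all of the difference lay in Synpr-002. The other transcripts, Synpr-003, Synpr-004 and Synpr-005, had at most 57 counts in any library. Synpr-002 had 1295 and 1414 estimated counts in Brn3b KO and 6923 and 9081 in Brn3b HET libraries at P3, and 294 and 47 in KO and 4542 and 2654 in HET libraries at E15. Synpr-001 had 309 and 344 in KO and 525 and 444 in HET libraries at P3. In Brn3a libraries, Synpr-002 was at 841 and 1348 in KO and 1107 and 1466 in HET, and Synpr-001 at 768 and 574 in KO and 994 and 785 in HET. Fitted alone among 51028 transcripts, a step added after the values were seen, neither transcript was called: Synpr-002 stood at log2 fold change -2.66 ± 0.69, adjusted p = 0.299 at P3 and log2 fold change -4.56 ± 0.76, adjusted p = 0.0924 at E15. Synpr-001 stood at log2 fold change -0.66 ± 0.99, adjusted p = 0.929 at P3 and log2 fold change -0.42 ± 1.03, adjusted p = 1 at E15. In that fit 0.00588% of transcripts were called at P3 and 0.123% at E15, and the split of reads between transcripts is an estimate.

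The 250 bases before each RefSeq start of Synpr are shown because the values differ between transcripts with different starts. Those before the first Syn2 start are shown because Syn2 was the other member called at both ages. The sequences are from RefSeq, GRCm38.p6, plus strand, at chr14:13284530-13284779, chr14:13453708-13453957 and chr6:115134652-115134901. The RefSeq start of the second Synpr window, chr14:13453958, is also the listed start of the short transcript Synpr-005. Synpr-002, which held nearly all of the difference, starts further on, at chr14:13454057, so that window does not end at its start. Capitals mark TCATTAA, the core of a site that Brn3 factors bind in vitro, and the GC box GGGCGG, on either strand.
Synpr first start: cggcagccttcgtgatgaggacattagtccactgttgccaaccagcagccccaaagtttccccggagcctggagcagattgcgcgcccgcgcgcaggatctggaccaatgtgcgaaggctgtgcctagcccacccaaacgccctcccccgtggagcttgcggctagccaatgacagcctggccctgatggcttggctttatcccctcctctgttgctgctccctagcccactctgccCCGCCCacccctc
Synpr second start: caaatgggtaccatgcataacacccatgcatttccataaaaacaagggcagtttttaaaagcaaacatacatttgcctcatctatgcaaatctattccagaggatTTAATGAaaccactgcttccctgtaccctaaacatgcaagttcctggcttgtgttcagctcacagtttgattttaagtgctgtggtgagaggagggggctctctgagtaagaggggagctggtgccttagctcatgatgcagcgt
Syn2 first start: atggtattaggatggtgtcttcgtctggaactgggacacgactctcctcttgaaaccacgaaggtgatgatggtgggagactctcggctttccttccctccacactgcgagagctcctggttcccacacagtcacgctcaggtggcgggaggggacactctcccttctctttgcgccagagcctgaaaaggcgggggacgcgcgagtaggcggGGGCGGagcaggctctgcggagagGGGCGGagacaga
The second Synpr window holds TTAATGA, the reverse complement of TCATTAA, from 145 bases before the RefSeq start, and its GC content is 44.4%. The first Synpr window (64% GC) holds 1 GC box and the Syn2 window (61.2% GC) holds 2. TCATTAA, on either strand, is in 2 of the 41 windows that RefSeq gives for 29 of the members (Cplx2 and Synpr) and in 2.88% of all 32851 windows. This short string was chosen after the windows were seen; the longer CTCATTAA was in none of the 41 and in 0.807% of all windows, and GGGCGG was in 24 of the 41 and in 32.7% of all. These are matches of letters, not sites of binding.

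Syn2 (chr6:115134902-115282626, plus strand) was at 14.8 and 16.3 CPM in Brn3b KO and 45.8 and 62.5 CPM in Brn3b HET libraries at P3 (log2 fold change -1.85 ± 0.33, adjusted p = 0.0236). It was at 2.16 and 1.20 CPM in KO and 7.99 and 3.79 CPM in HET libraries at E15 (log2 fold change -1.83 ± 0.37, adjusted p = 0.0384). The KO libraries lay below the HET libraries at both ages. Syt13 (chr2:92915098-92956058, plus strand) was at 40.6 and 46.5 CPM in KO and 117 and 173 CPM in HET libraries at P3 (log2 fold change -1.78 ± 0.32, adjusted p = 0.0236). It was at 159 and 105 CPM in KO and 407 and 236 CPM in HET libraries at E15 (log2 fold change -1.31 ± 0.31, adjusted p = 0.0772), where it was not called. Dnm1 (chr2:32308471-32353329, minus strand) was at 34.0 and 26.0 CPM in KO and 80.2 and 55.5 CPM in HET libraries at E15 (log2 fold change -1.20 ± 0.26, adjusted p = 0.0489). It was at 113 and 91.9 CPM in KO and 129 and 174 CPM in HET libraries at P3 (log2 fold change -0.61 ± 0.25, adjusted p = 0.224). The 3 P3 calls were each lost without either KO library or without HET library 2, and the E15 calls of Syn2 and Dnm1 without either KO library or without HET library 1. With RLE scaling the Dnm1 call was lost too (adjusted p = 0.0529). Without HET library 2 at E15, 6 members were called.

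Several members missed the threshold at P3 with KO libraries below HET libraries. Stx1a was at 24.9 and 27.8 CPM in KO and 44.4 and 63.4 CPM in HET libraries (log2 fold change -1.08 ± 0.27, adjusted p = 0.0617). Syn1 was at 70.2 and 83.2 CPM in KO and 143 and 163 CPM in HET libraries (log2 fold change -1.04 ± 0.27, adjusted p = 0.072). Cplx1 was at 40.8 and 34.8 CPM in KO and 68.7 and 89.9 CPM in HET libraries (log2 fold change -1.12 ± 0.30, adjusted p = 0.0793), Rab3a at -0.82 ± 0.22 and Syt4 at -1.40 ± 0.38 on the log2 scale. DESeq2 called 11 members lower and none higher at P3, where it called 8.45% of all genes lower and 2.17% higher. At E15 it called 7 lower and 1 higher, where 3.06% were called lower and 1.92% higher. Members near 0 at P3 were Syp (0.02 ± 0.22), Syt11 (0.04 ± 0.24), Unc13b (0.15 ± 0.16) and Sv2b (0.14 ± 0.33), and Cplx2 (0.20 ± 0.23), Cplx3 (0.35 ± 0.49) and Cplx4 (0.24 ± 0.71) were not called. Whether the KO effect differed between ages was tested, and no member passed with edgeR, where 0.192% of all genes were called. An unadjusted p under 0.05 was found for 4 members and for 11.8% of all genes. For Synpr the KO effect at P3 minus that at E15 was 1.90 ± 0.56 on the log2 scale, adjusted p = 0.29. DESeq2 called Synpr alone of the members, and 2.18% of all genes.

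Marker values of cell types moved with genotype too. RGC markers summed to 2003 to 2269 CPM in Brn3b KO and 4388 to 6273 CPM in Brn3b HET libraries at P3, with 12 of 18 called lower. Microglia markers summed to 1149 to 1519 CPM in KO and 2412 to 2905 CPM in HET libraries, with 11 of 14 called lower. At E15, RGC markers summed to 8087 to 9241 CPM in KO and 7549 to 12902 CPM in HET libraries, with KO inside the HET range, and 6 of 18 were called lower. Of 14 amacrine markers 5 were called higher at E15, with sums of 821 to 981 CPM in KO and 235 to 288 CPM in HET libraries. Their part in the member values was not tested. Of the 53 other release genes 4 fell at P3, among them Ppfia4 (log2 fold change -1.19 ± 0.24, adjusted p = 0.033), Rims3 (log2 fold change -1.27 ± 0.28, adjusted p = 0.0413) and Napb (log2 fold change -0.95 ± 0.22, adjusted p = 0.0457). At E15 Sh3gl2 (endophilin A1) fell (log2 fold change -1.50 ± 0.25, adjusted p = 0.0179) with Rims4, while Syt9 rose (log2 fold change 0.81 ± 0.15, adjusted p = 0.028). Of the dense-core vesicle genes Pcsk2, a prohormone convertase, fell at P3 (log2 fold change -1.71 ± 0.24, adjusted p = 0.0192) with Ptprn2, and none was called at E15.

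**Figure D4:**
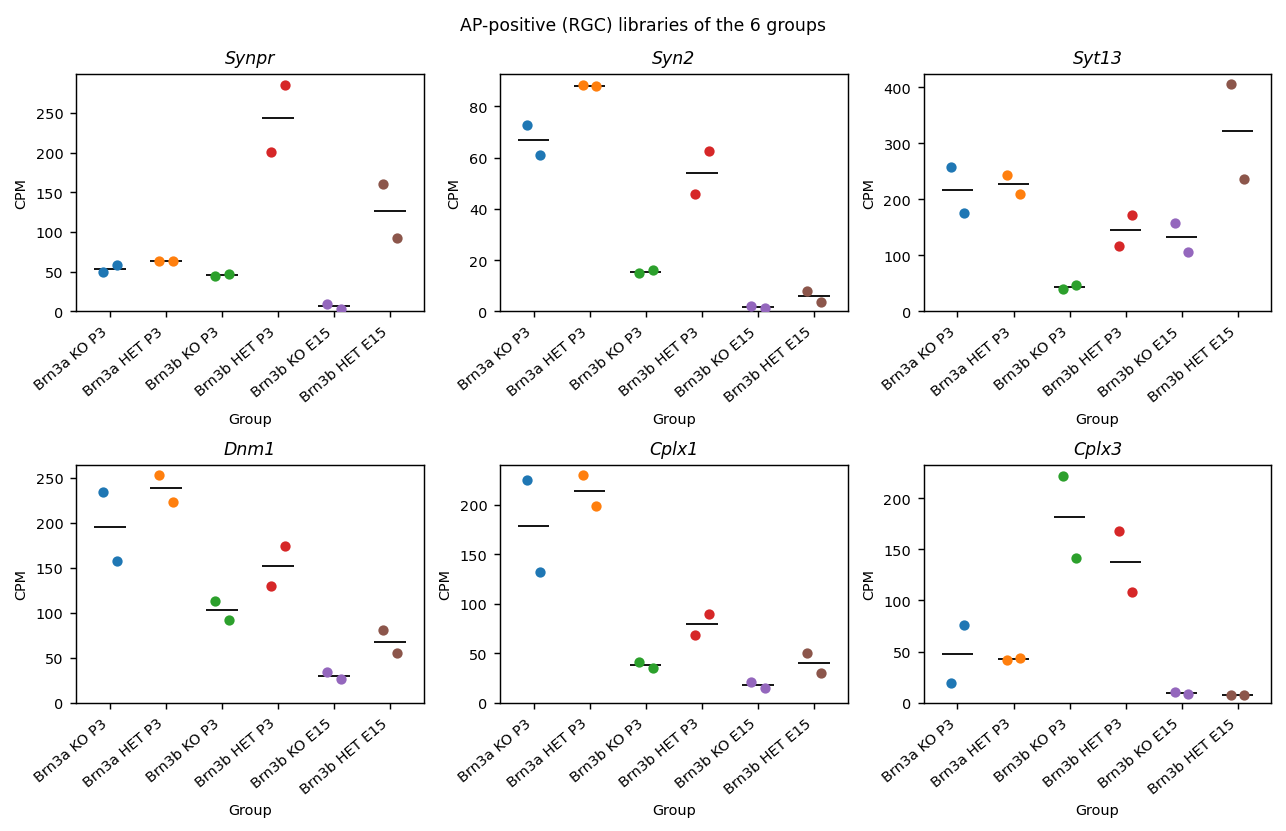
CPM of 6 members in the 12 RGC libraries; points are libraries, black lines group means, KO left of HET. Synpr, Syn2, Syt13, Dnm1 and Cplx1 are lower in Brn3b KO than in Brn3b HET libraries at both ages, though not each of these differences was called. Cplx3 is highest in the Brn3b libraries of P3.

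Loss of Brn3a, 2 KO against 2 HET libraries at P3, called no member with edgeR, where 0.0180% of all genes were called, or with DESeq2, where 0.336% were. By edgeR 2 members and 2.59% of all genes had an unadjusted p under 0.05. Over the members the median log2 fold change was -0.17, against 0.01 over all genes. Cplx2 had the largest negative value, at 261 and 424 CPM in KO and 556 and 524 CPM in HET libraries (log2 fold change -0.66 ± 0.24, adjusted p = 1). Nsf was at 222 and 225 CPM in KO and 284 and 270.4 CPM in HET libraries (log2 fold change -0.31 ± 0.13, adjusted p = 1). Synpr was at 49.8 and 58.0 CPM in KO and 63.1 and 63.6 CPM in HET libraries (log2 fold change -0.24 ± 0.39, adjusted p = 1). The KO libraries differed from each other in the ribbon complexins, with Cplx3 at 19.2 and 75.9 CPM and Cplx4 at 1.33 and 7.70 CPM, beside photoreceptor marker sums of 487 and 2052 CPM. The difference between the Brn3b and the Brn3a KO effect at P3 was called for no member with edgeR, where 0.0120% of all genes were called. An unadjusted p under 0.05 was found for 7 members and for 8.82% of all genes. The difference was -2.22 ± 0.55 on the log2 scale, adjusted p = 0.203, for Synpr and -1.72 ± 0.44 on the log2 scale, adjusted p = 0.212, for Syt13, the 2 members that DESeq2 called, with 2.22% of all genes.

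Cells marked by the 2 loci were compared as Brn3b HET against Brn3a HET libraries at P3, 2 against 2. Synpr was called higher and Syt1, Nsf and Cplx1 lower in Brn3b HET libraries, where 2.03% of all genes were called higher and 1.82% lower. The median log2 fold change of the members was -0.64, against 0.01 over all genes. Synpr was at 201 and 285 CPM in Brn3b HET and 63.1 and 63.6 CPM in Brn3a HET libraries (log2 fold change 1.95 ± 0.40, adjusted p = 0.0368). By transcript, Synpr-002 alone stood at log2 fold change 2.61 ± 0.69, adjusted p = 0.259 and Synpr-001 at log2 fold change -0.92 ± 0.99, adjusted p = 0.791, in opposite directions and neither called. Cplx1 was at 68.7 and 89.9 CPM in Brn3b HET and 229 and 199 CPM in Brn3a HET libraries (log2 fold change -1.42 ± 0.30, adjusted p = 0.0405). Syt1 was at 554 and 698 CPM in Brn3b HET and 1221 and 1174 CPM in Brn3a HET libraries (log2 fold change -0.92 ± 0.20, adjusted p = 0.0411). Nsf was at 177 and 196 CPM in Brn3b HET and 284 and 270.4 CPM in Brn3a HET libraries (log2 fold change -0.56 ± 0.13, adjusted p = 0.0463). In each of the 4 genes both libraries of one group lay beyond both of the other.

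Sv2c at 18.2 and 36.9 CPM in Brn3b HET and 83.7 and 70.0 CPM in Brn3a HET libraries (log2 fold change -1.47 ± 0.39, adjusted p = 0.0579) and Syn3 at 17.6 and 20.0 CPM in Brn3b HET and 44.6 and 37.5 CPM in Brn3a HET libraries (log2 fold change -1.11 ± 0.28, adjusted p = 0.0542) missed the threshold. Cplx3 and Sv2b pointed the other way. Cplx3 was at 168 and 108 CPM in Brn3b HET and 42.1 and 43.4 CPM in Brn3a HET libraries (log2 fold change 1.70 ± 0.50, adjusted p = 0.074). Sv2b was at 374 and 266 CPM in Brn3b HET and 155 and 156 CPM in Brn3a HET libraries (log2 fold change 1.05 ± 0.33, adjusted p = 0.0822). The number of calls depended on the fit, with 0 members called without any 1 of the 4 libraries, 18 with DESeq2, which called 20.7% of all genes, and 25 with only the 4 libraries in the fit. For the fit of only the 4 libraries, the share of all genes called was not computed. Photoreceptor markers summed to 2868 to 4115 CPM in Brn3b HET and 1108 to 1163 CPM in Brn3a HET libraries. RGC markers summed to 4388 to 6273 CPM in Brn3b HET and 9964 to 10663 CPM in Brn3a HET libraries. Their part was not tested. Of the 53 other release genes Ctbp2, whose product RIBEYE builds synaptic ribbons, was higher in Brn3b HET libraries (log2 fold change 1.28 ± 0.22, adjusted p = 0.0232) and Ppfia4 was lower.

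In the brain, SC and LGN, the main targets of retinal axons, were compared with each other and with remaining brain. These libraries hold RNA of the target tissue, since RNA of retinal axon terminals was not separated from it. SC against LGN, 3 against 3, called 10 members higher and 12 lower of 38 tested, where 4.41% of all 15288 genes were called higher and 5.78% lower. The median log2 fold change of the members and of all genes was 0.02, so the members moved both ways. LGN against remaining brain, 3 against 2, called 7 higher and 11 lower, where 5.76% of all genes were called higher and 5.17% lower. SC against remaining brain called 2 higher and 5 lower, where 3.19% were called higher and 3.75% lower.

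Synpr again had a large difference, at 78.6, 93.1 and 111 CPM in SC and 19.3, 27.0 and 23.9 CPM in LGN libraries (log2 fold change 2.01 ± 0.16, adjusted p = 9.22e-05), and at 64.4 and 73.2 CPM in remaining brain. It was lower in LGN than in remaining brain (log2 fold change -1.56 ± 0.17, adjusted p = 0.000558), and SC did not pass against remaining brain (log2 fold change 0.45 ± 0.17, adjusted p = 0.167). Cplx2 was at 383, 449 and 428 CPM in SC, 185, 199 and 186 CPM in LGN, 201 CPM in PTA and 575 and 596 CPM in remaining brain (log2 fold change 1.15 ± 0.09, adjusted p = 8.67e-05 for SC against LGN, and log2 fold change -1.63 ± 0.10, adjusted p = 2.03e-05 for LGN against remaining brain). No LGN library reached a SC or remaining brain library in either gene. Syt4 was at 438, 468 and 530.2 CPM in SC and 177, 156 and 223 CPM in LGN libraries (log2 fold change 1.37 ± 0.14, adjusted p = 0.000267). Syt2, the fast calcium sensor typical of hindbrain and spinal synapses, was at 31.7, 34.5 and 40.5 CPM in SC and 14.5, 10.6 and 12.3 CPM in LGN libraries (log2 fold change 1.52 ± 0.20, adjusted p = 0.00149). Cplx3 was low throughout, at 4.90, 5.20 and 5.19 CPM in SC and 1.07, 1.18 and 1.24 CPM in LGN libraries (log2 fold change 2.12 ± 0.30, adjusted p = 0.00193). Snap25 (0.51 ± 0.08), Rab3b (0.63 ± 0.10), Vamp1 (0.58 ± 0.14), Syt6 (0.81 ± 0.16) and Syt12 (1.16 ± 0.25) were also higher in SC than in LGN on the log2 scale.

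Members lower in SC than in LGN included Syt13, at 195, 166 and 191 CPM in SC and 374, 349 and 402 CPM in LGN libraries (log2 fold change -1.02 ± 0.10, adjusted p = 0.000248), and Sv2b, at 55.8, 52.8 and 60.0 CPM in SC and 127, 117 and 181 CPM in LGN libraries (log2 fold change -1.33 ± 0.16, adjusted p = 0.000744). Syt1 was at 658, 566 and 636 CPM in SC and 1080.4, 979 and 1149.7 CPM in LGN libraries (log2 fold change -0.78 ± 0.12, adjusted p = 0.00243). The groups did not overlap in these 3 genes. Stx1a (-0.73 ± 0.12), Rims1 (-0.66 ± 0.10), Bsn (-0.63 ± 0.09), Unc13a (-0.51 ± 0.11), Rims2 (-0.50 ± 0.11), Syt5 (-0.50 ± 0.13), Syt7 (-0.47 ± 0.11), Cplx1 (-0.45 ± 0.11) and Snap91 (-0.45 ± 0.11) were lower too. Pclo, at -0.16 ± 0.17, and Unc13b, at 0.13 ± 0.14, were not called. With transcript length offsets the calls of Bsn (-0.35 on the log2 scale, adjusted p = 0.0786) and Unc13a (-0.48 on the log2 scale, adjusted p = 0.132) were lost. Per transcript length Bsn was at 20.7 to 22.4 TPM in SC and 26.3 to 27.8 TPM in LGN libraries. Unc13a was at 35.0 to 55.7 TPM in SC and 54.2 to 67.3 TPM in LGN libraries, with overlap. Without single libraries the Unc13a call was lost for SC libraries 2 and 3 and LGN libraries 2 and 3, and the Rims2 call for each SC library and LGN library 3. Of the 22 calls 12 held under each alternative run, those of Rims1, Syt13, Sv2b, Syt1, Stx1a, Synpr, Cplx2, Cplx3, Syt2, Syt4, Snap25 and Rab3b. With SC and LGN libraries paired by number, Nsf (0.43 on the log2 scale, adjusted p = 0.0134, against 0.0527 without pairs) and Amph (0.30, adjusted p = 0.0235, against 0.116 without pairs) were also called higher in SC. The other members that did not pass were Syp, Sv2a, Sv2c, the 3 synapsins, Syt11, Vamp2, Rab3a, Rab3c, Rph3a and Dnm1, with log2 fold changes of -0.21 (Syp) to 0.44 (Syn3). Without SC library 2, 14 members were called.

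Against remaining brain, LGN was higher in Syt13 (1.25 ± 0.11), Rims2 (1.05 ± 0.13), Syt1 (0.73 ± 0.13), Syt7 (0.72 ± 0.12), Rab3c (0.69 ± 0.13), Rims1 (0.67 ± 0.11) and Bsn (0.65 ± 0.10), and lower in Cplx1, Cplx2 and Cplx3 and in Syt2 (-1.82 ± 0.22), Rab3b (-0.95 ± 0.11), Syt6, Syt4, Syn2, Amph, Snap25 and Synpr. SC was higher in Rab3c, at 640.0, 629.6 and 679 CPM in SC and 432 and 339 CPM in remaining brain (log2 fold change 0.75 ± 0.13, adjusted p = 0.0102), and in Rims2 (0.55 ± 0.13). Cplx1 was lower in SC, at 109, 98.5 and 107 CPM in SC and 185 and 239 CPM in remaining brain (log2 fold change -1.02 ± 0.12, adjusted p = 0.00122), as were Sv2b (-1.36 ± 0.17), Syn2 (-0.63 ± 0.12), Syt5 (-0.70 ± 0.14) and Cplx2 (-0.48 ± 0.10). Without remaining brain library 2, 11 members were called in LGN and 3 in SC. Without SC library 2, 4 were called in SC. With libraries paired by number, Rab3b (-0.37 on the log2 scale, adjusted p = 0.0481) and Amph (-0.37 on the log2 scale, adjusted p = 0.031) were also called lower in SC, and Stx1a (0.45 on the log2 scale, adjusted p = 0.0377) higher in LGN. With transcript length offsets the Bsn call in LGN was lost. Of the 53 other release genes, 2 were higher and 9 lower in SC than in LGN, led by Doc2b, a calcium sensor of spontaneous release (log2 fold change 1.37 ± 0.18, adjusted p = 0.00149). Of 8 oligodendrocyte lineage markers 5 were lower in SC and 4 lower in LGN than in remaining brain. Their part in the member values was not tested.

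The single PTA library has no replicate. Synpr was at 62.7 CPM there, Syt2 at 16.8 CPM, Syt13 at 201 CPM, Cplx1 at 112 CPM, Sv2b at 43.1 CPM and Rims2 at 30.6 CPM. Sv2b, Syn1, Syt1, Snap25, Vamp2, Rph3a and Rims2 were lower in PTA than in each of the other 8 brain libraries. Syt6, at 48.6 CPM, was higher than in each of them. The share of all genes that lay outside in this way was not computed, so no trait of the members is read from it.

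**Figure D5:**
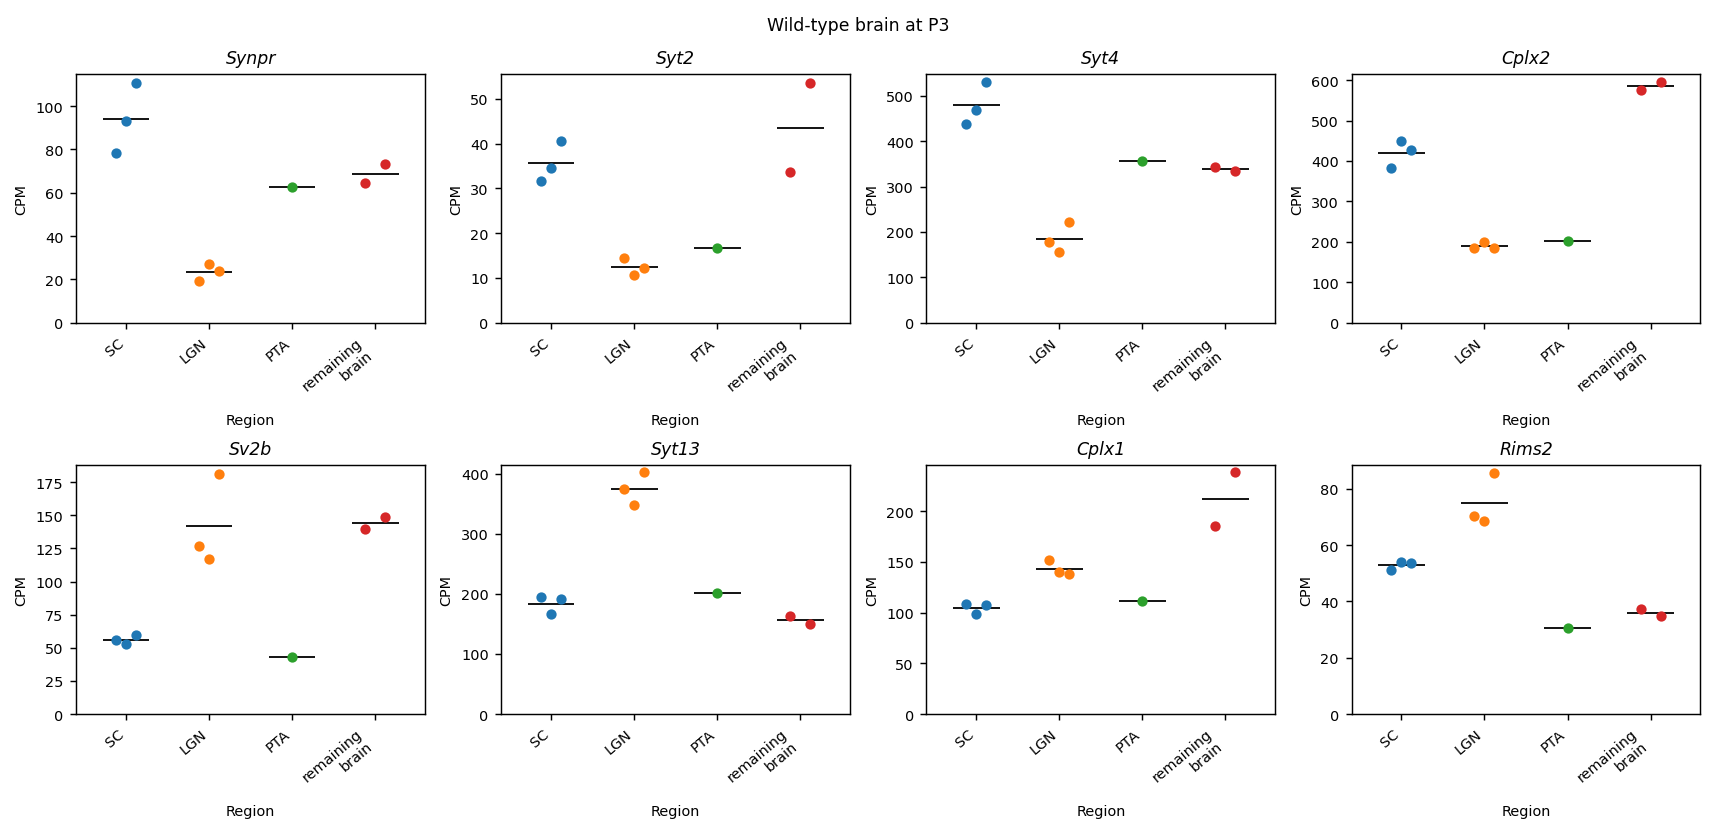
CPM of 8 members in the brain libraries; points are libraries and black lines group means (PTA is 1 library). LGN is lowest for Synpr, Syt2, Syt4 and Cplx2 and highest for Syt13 and Rims2, SC is below LGN for Sv2b, and SC is below both LGN and remaining brain for Cplx1.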

How the data were processed

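RNA of 18 retinal libraries (single-end reads of 76 bases) and 9 brain libraries (paired-end reads of 125 bases), made with a stranded kit per the labels' protocols, was deposited as estimated counts for 88198 transcripts. Per the submitters' processing notes the authors used Trimmomatic 0.32, Bowtie2 2.2.1 and eXpress 1.3.1 with build GRCm38.p3; how these were combined is not given in the sources used here. eXpress splits reads between transcripts and paralogs by a model, so transcript values and near-identical copies are less certain than gene sums. The estimated counts were summed per gene and rounded to whole numbers. TPM was computed from the estimated counts and the transcript lengths in the file. CPM was computed after TMM scaling, separately in retina and brain, which were never tested against each other.

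Genes were tested with edgeR 4.0.16 in R 4.3.3 (quasi-likelihood F test, filterByExpr with a minimum count of 10, Benjamini-Hochberg adjustment over all genes of a fit, calls at adjusted p under 0.05), in fits of all 18 retinal libraries (16954 genes), the 12 RGC libraries (16673 genes) and the 9 brain libraries (15288 genes). The SE of a log2 fold change is its size divided by the square root of F. The PTA library is in the brain fit and in no comparison. The steps were tested on simulated data. Alternatives were DESeq2 1.42.0, RLE scaling, no filter, transcript length offsets, fits of the compared groups, a replicate block and leaving out each library. Members and gene lists were chosen with earlier results of these data known. All 39 members are named; of the other release, dense-core vesicle and adhesion lists, up to 4 genes with the smallest adjusted p per comparison could be named. SC and LGN libraries of the same number deviated together (correlations 0.443, 0.269 and 0.482), so these numbers appear to pair the samples, although no label says what they stand for. The main brain tests did not use the pairing, and calls gained with libraries paired by number are given beside them. The 2 remaining brain libraries carry numbers of the same kind and correlated at 0.154 with SC and 0.218 with LGN libraries.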

Additional observations from a re-analysis of the deposited data

Results flagged for a closer look

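Of the members, 10 had an RGC to SN difference that differed between P3 and E15 by a test of the difference itself (edgeR, interaction of fraction and age, adjusted p under 0.05). The difference was larger at P3 for Syn2 by 2.22, Syt4 by 1.94, Cplx1 by 1.42, Syt13 by 1.21, Syn3 by 1.13, Snap25 by 1.06, Nsf by 0.88 and Syt1 by 0.64 on the log2 scale. For Syt11 the value was -0.76 and for Unc13b -0.82, that is, smaller at P3. Syt4 was at 172 to 929.5 CPM in P3 RGC and 76.8 to 132 CPM in P3 SN libraries, and at 69.1 to 359 CPM in E15 RGC and 106 to 126 CPM in E15 SN libraries. Nsf was at 149.8 to 284 CPM in P3 RGC and 97.2 to 125 CPM in P3 SN libraries, and at 53.2 to 65.6 CPM in E15 RGC and 54.8 to 59.4 CPM in E15 SN libraries. Syt11 was at 176 to 397 CPM in P3 RGC and 319 to 364 CPM in P3 SN libraries, and at 383 to 521 CPM in E15 RGC and 265 to 345 CPM in E15 SN libraries. The calls of Syn2, Syt4, Snap25 and Nsf held under each alternative run, and that of Syt1 in 5 of 24. P3 RGC libraries include Brn3a groups, which have no E15 counterpart.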

How the results depend on the processing

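The 179 calls of members had 2435 values under alternatives, of which 2152 kept the call, 282 lost it and 1 turned round, Synpr-001 fitted alone in Brn3b HET against Brn3a HET at -0.92. Of 5298 values of results not called, 160 gained a call. Member counts moved by over 1.5 times as follows. DESeq2 called 11 members in Brn3b KO against HET at P3, 8 at E15, 18 in Brn3b HET against Brn3a HET, 1 for the KO effect by age and 2 for the KO effect by gene. Without the filter the counts were 8, 7 and 10 in the first 3 of these, and with all 18 retinal libraries Brn3b HET against Brn3a HET gave 9. With the fit limited to the groups compared, RGC against SN at E15 gave 3, Brn3b KO against HET 0 at each age and Brn3b HET against Brn3a HET 25; the interaction of fraction and age with HET groups gave 5. Fewer libraries enter such fits. The share of all genes called was computed for the DESeq2 runs above and not for the other alternatives.

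Leaving out 1 library gave 28 to 30 members for RGC against SN at P3, 2 to 19 at E15, 16 to 23 for SN by age, 6 to 13 for fraction by age, 0 to 0 for Brn3a KO, 0 to 3 for Brn3b KO at P3, 1 to 6 at E15, 0 to 0 for Brn3b HET against Brn3a HET and for both KO interactions, 16 to 25 for age in Brn3b HET and 16 to 17 in Brn3b KO, 14 to 20 for SC against LGN, 3 to 7 for SC and 11 to 20 for LGN against remaining brain. An arm left with 1 library was assumed to vary like the others.

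With the replicate number as a block, the counts were 29 and 14 for RGC against SN at P3 and E15, 21 for SN by age, 12 for fraction by age, 0 for Brn3a KO, 3 and 2 for Brn3b KO at P3 and E15, 3 for Brn3b HET against Brn3a HET, 26 and 21 for age in HET and KO, 0 for both KO interactions, 24 for SC against LGN, and 9 and 19 for SC and LGN against remaining brain. The block lost Synpr in SN by age, Syn2 in Brn3b KO at E15 (adjusted p = 0.0503), Nsf in Brn3b HET against Brn3a HET (adjusted p = 0.0556), and Snap91 and Amph for age in HET. Retinal samples share only a number, with correlations of -0.307 to 0.540. The value of 0.540 is that of Brn3b KO against HET at E15, where the block lost the Syn2 call. It is above the correlations of SC and LGN libraries, and no label says whether these retinal libraries were paired. Numbers crossed between P3 and E15 in Brn3b HET gave 24. With 2 libraries a group a log2 fold change of -1.08 (Stx1a in Brn3b KO at P3) did not pass, and members near 1 CPM, Syt2, Syt12 and Cplx4 at E15, rest on few reads.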

Other observations

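Transcript mixes within 3 SNARE and Rab genes are given by group of libraries, and most ranges of the retinal groups overlapped. The mixes are shares of estimated counts within a gene, not tested, and retinal and brain libraries had reads of different length. Rab3a-005, a transcript of 508 bases, took 22.4% to 32.0% of Rab3a counts in P3 RGC libraries and 10.1% to 24.8% in E15 RGC libraries. In P3 SN libraries it took 0.25% to 25.3%, since the Brn3a HET SN library had 6 counts of it where the other 3 had 736 to 863. In the brain it took 2.74e-07% to 0.499% in SC, 9.94e-07% to 1.07% in LGN and 3.19e-08% to 2.15% in remaining brain libraries.

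Stx1a-003, annotated as a target of nonsense-mediated decay, took 19.6% to 53.9% of Stx1a counts in E15 RGC and 13.6% to 33.7% in E15 SN libraries, and 6.57% to 25.5% in P3 RGC and 21.5% to 34.5% in P3 SN libraries. The P3 RGC shares were lowest in Brn3a KO (6.57% to 7.49%) and Brn3a HET (7.25% to 9.57%) libraries and highest in Brn3b KO libraries (16.0% to 25.5%). SC had 1.33% to 5.31% and LGN 1.59% to 3.53%. Vamp1-001 took 12.6% to 66.4% of Vamp1 counts in P3 RGC and 7.47% to 26.7% in P3 SN libraries, and 80.7% to 93.8% in SC and 82.2% to 90.1% in LGN libraries. Synpr-002 took 72.5% to 82.3% of Synpr counts in SC and 63.7% to 94.6% in LGN libraries.

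The members together made up 0.351% to 0.702% of all TPM in P3 RGC libraries and 0.254% to 0.323% in P3 SN libraries, and 0.148% to 0.252% in E15 RGC and 0.104% to 0.135% in E15 SN libraries.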
